A study of Mus musculus with 9 samples.

Results

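The target region of the mouse brainstem was compared with the mean of its dorsal and ventral neighbouring regions. All 9 arrays of the series entered the comparison, 3 from target, 3 from dorsal and 3 from ventral, and each mouse gave 1 array to every region. The mice were male, 8 weeks old and of the Chat-Cre:Ai9 strain. They carried Cre recombinase driven by Chat, the gene for the enzyme that makes acetylcholine, and Ai9, a reporter allele that makes the red fluorescent protein tdTomato where Cre is active. The 3 regions shared this genotype, the labels give no treatment, and the groups differ by place. The labels describe total RNA of tissue and no sorting of the tdTomato cells, and neither the landmarks of the target region nor the dissection is given in the sources used here. In such bulk RNA, fewer cells of a type and less RNA per cell cannot be told apart.

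Each array, an Illumina BeadChip, carried 45281 probes, and 20461 of them with 14313 gene names were above background on at least 3 of the 9 arrays and were tested. Between 16703 and 19945 probes were above background per array, a median of 43 to 45 beads stood behind each intensity, and array pairs correlated between 0.892 and 0.961. Levels and differences are log2 values of background-corrected, quantile-normalised intensity. Differences are target minus the mean of the dorsal and ventral means unless another pair is named. Adjusted p-values are limma's, by Benjamini-Hochberg over all tested probes, and a probe is said to be called where its adjusted p lay below 0.05. These p-values rest on the spread among 3 mice within each region, pooled over the regions. The main fit did not pair the regions of a mouse, and a fit with the mouse as a block is given as an alternative. With 3 arrays per region, their number sets the precision.

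Neurotensin is a short peptide that neurons cut from a larger precursor and release beside fast transmitters. It acts through G protein-coupled receptors encoded by Ntsr1 and Ntsr2, is bound by the sorting receptor Sort1, and is broken down by membrane peptidases. Noradrenergic neurons of the brainstem take noradrenaline back up through the transporter Slc6a2, and many of them also make the peptide galanin. The peptide CGRP, a product of Calca, is made by motor neurons of the cranial nerves and by a group of parabrachial neurons.

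Nts, Calca and Gal encode the 3 neuropeptide precursors that were higher in target than in the mean of its neighbours, and their promoters are shown because these 3 genes share that direction. The sequences are RefSeq windows of the GRCm38.p6 build, from 250 bases before to 50 bases after the start site, and all 3 genes lie on the minus strand. Capitals mark matches to TGANTCA, the site of the activity-dependent factor AP-1, and to TGACG, a half-site of the cyclic AMP response element, both searched on both strands.
Nts promoter, chr10:102490369-102490668: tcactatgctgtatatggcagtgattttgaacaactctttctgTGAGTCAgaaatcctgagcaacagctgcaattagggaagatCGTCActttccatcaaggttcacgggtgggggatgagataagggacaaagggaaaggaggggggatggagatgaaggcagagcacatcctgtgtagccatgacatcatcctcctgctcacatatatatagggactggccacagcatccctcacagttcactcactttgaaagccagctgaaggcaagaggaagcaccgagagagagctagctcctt
Calca promoter, chr7:114636308-114636607: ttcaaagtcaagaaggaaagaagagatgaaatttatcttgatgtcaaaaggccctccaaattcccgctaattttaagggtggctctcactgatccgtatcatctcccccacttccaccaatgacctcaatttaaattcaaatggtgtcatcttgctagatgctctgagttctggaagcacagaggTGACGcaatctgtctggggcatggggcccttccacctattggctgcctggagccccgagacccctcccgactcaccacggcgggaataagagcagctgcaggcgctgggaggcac
Gal promoter, chr19:3414495-3414794: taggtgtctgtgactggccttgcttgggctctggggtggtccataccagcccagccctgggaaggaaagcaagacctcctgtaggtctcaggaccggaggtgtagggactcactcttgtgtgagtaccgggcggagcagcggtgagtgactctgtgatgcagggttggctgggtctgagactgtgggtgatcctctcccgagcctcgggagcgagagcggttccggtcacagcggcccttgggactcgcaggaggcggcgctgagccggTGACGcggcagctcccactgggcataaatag
The Nts window held TGAGTCA at -207 and CGTCA, the half-site on the other strand, at -166 from the start site. The Calca window held 1 half-site at -65 and the Gal window 1 half-site at 20 bases past the start. Of all 32851 promoter windows of this length in the table, 7.81% held the AP-1 letters, 20.8% the half-site and 27.4% either. A match describes the letters and does not show a site in use.

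Against the mean of both neighbours, 15 probes (0.0733% of those tested) were called. Of these, 14 (0.0684%) were higher in target and 1 (0.00489%), a Cops6 probe measured in ventral alone, was lower than that mean. Among all tested probes the median difference was 0.00, the 1st and 99th percentiles were -0.80 and 0.90, and the median standard error was 0.23. The 15 probes belonged to 13 gene names: Nts and Slc6a2 with 2 probes each, Mmel1, Mark4, Calca, Gal, Trak2 and Cops6, and 5 loci that the array knows only by clone names. The 8 named genes lie on chromosomes 10 (Nts), 8 (Slc6a2), 4 (Mmel1), 7 (Mark4 and Calca), 19 (Gal), 1 (Trak2) and 5 (Cops6). At an unadjusted p below 0.05 there were 1652 probes (8.07%), 898 of them higher (4.39%) and 754 lower (3.69%). Each of the 15 probes differed in the same direction in all 3 mice, which their selection on these same arrays favours.

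A difference from the mean of 2 regions can come from either one, so the place of target between its neighbours was read for every called probe. The target mean lay above both neighbour means for 11 of the 15 and between them for 4. Over all tested probes, 27.8% lay above both, 27.7% below both and 44.5% between. The 15 were chosen by their difference from the neighbours' mean on these same arrays, which by itself favours a level beyond both. Among the 1652 probes with an unadjusted p below 0.05, 45.5% lay above both, 41.5% below both and 13.0% between. In 10 of the 15 the 3 target arrays lay above the 6 neighbour arrays, an arrangement found in 239 tested probes (1.17%), while 228 (1.11%) had all 3 below. The choice of the 15 favours this arrangement too. All 15 also passed the test against ventral, where 365 probes (1.78%) were called, and 8 of them were at background on all 3 ventral arrays. Only Trak2 also passed against dorsal, where 12 probes (0.0586%) were called. The neighbours themselves differed at 11 of the 15, and at 1632 tested probes (7.98%). The target arrays enter each of these contrasts, so their calls are not independent of one another.

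**Figure D1:**
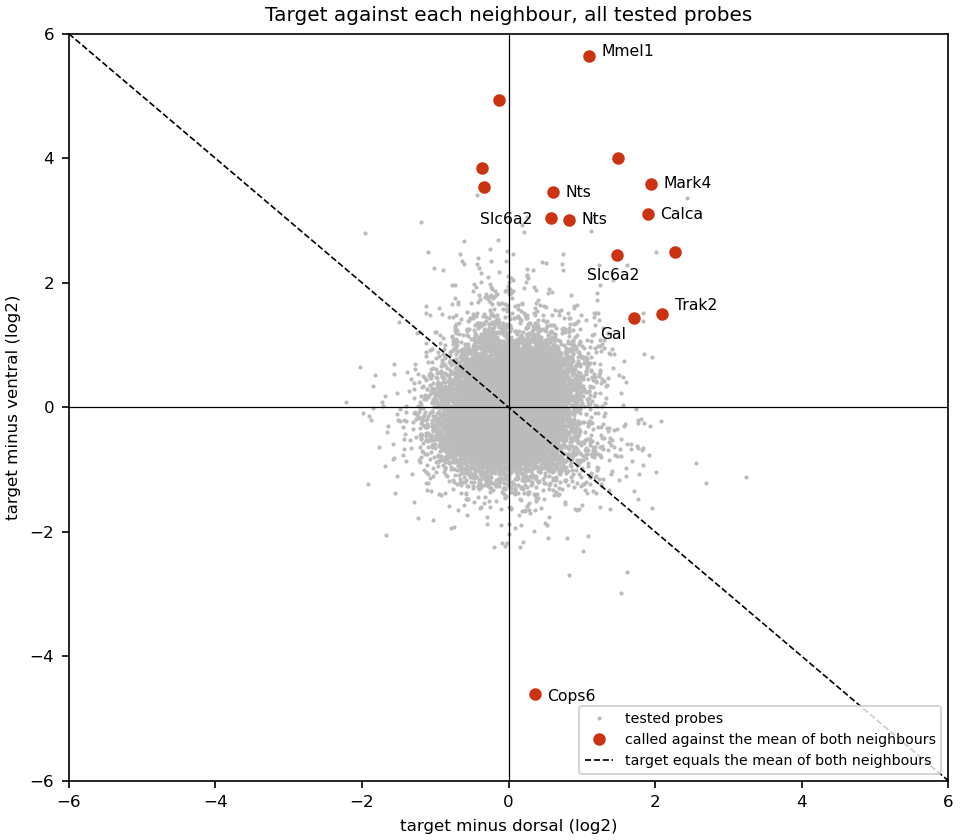
Difference between target and ventral (y axis, log2) against difference between target and dorsal (x axis, log2) for the 20461 tested probes (grey) and the 15 called against the mean of both (red). Points above and right of both axis lines are higher in target than in either neighbour, as for 11 of the called probes, and the dashed line marks a target level equal to the mean of the neighbours; unlabelled red points are clone-named loci.

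A level beyond both neighbours at once was then tested, with the larger of the 2 pairwise p-values wherever both differences had the same sign. After adjustment no probe was called by limma (0 of 20461, 0%). At an unadjusted p below 0.05 there were 265 probes (1.3%), 143 of them higher (0.699%) and 122 lower (0.596%) in target, and in the blocked fit, with the mouse as a term, the counts were 0 and 343. The probe with the largest fitted margin over its nearer neighbour among those called against the mean was the clone-named D130067N01RIK, followed by Mark4, Calca and Trak2. For D130067N01RIK and Calca only 1 dorsal array was above background. Background therefore limits the size of their margins and their place in this order.

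The Nts transcript was highest in target, intermediate in dorsal and lowest in ventral on both of its tested probes. Probe 1850095 read 8.19, 8.16 and 8.21 on target arrays 1 to 3, 7.41, 7.24 and 7.46 on the dorsal arrays, and 5.14, 4.99 and 5.40 on the ventral arrays. The 3 groups did not overlap, and the ventral arrays were all at background. Target exceeded the mean of its neighbours by at least 3.04-fold (fitted difference 1.92, SE 0.15, adjusted p = 0.00316) and ventral alone by at least 5.23-fold. Against dorsal the difference was 0.82 (SE 0.17, adjusted p = 0.146).

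The brighter Nts probe 7320255 read 9.97, 9.81 and 9.82 in target, 9.24, 9.25 and 9.29 in dorsal, and 6.71, 5.87 and 6.67 in ventral, whose array 2 alone was at background. Again the target arrays stood above all others, with the dorsal arrays less than 1 unit below them and the ventral arrays further down. The difference from the mean of the neighbours was 2.03 (SE 0.20, 4.08-fold, adjusted p = 0.0101), and that from dorsal was 0.61 (SE 0.23, adjusted p = 0.457).

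Mmel1, which encodes a membrane metallopeptidase related to neprilysin, had the largest difference among the called probes. Its probe read 9.80, 10.93 and 10.79 in target, 9.48, 8.90 and 9.84 in dorsal, and 5.04, 4.77 and 4.76 in ventral. Target and dorsal overlapped, since target array 1 lay below dorsal array 3, and every ventral array was at background. Target exceeded the mean of the neighbours by at least 7.48-fold (fitted difference 3.37, SE 0.29, adjusted p = 0.00515) and ventral by at least 26.1-fold, whereas the difference from dorsal was 1.10 (SE 0.33, adjusted p = 0.350). The adjusted p of Mmel1 rose to 0.0611 without target array 2 and 0.0503 without target array 3.

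With 1 probe per gene, 12 of all 14313 tested genes (0.0838%) were called, 11 higher (0.0769%) and 1 lower (0.00699%), the background for each count of list members. The lists and their members were chosen with earlier results of these data known. A count above this share therefore does not measure enrichment, here or in the lists below. Of the 12 genes listed for the neurotensin system, 11 were tested, 2 were called (Nts and Mmel1, both higher) and 9 were not. The median of the list was 0.09, against 0.01 over all tested genes. Ntsr2, the low-affinity receptor, had a difference of -0.07 (SE 0.16, adjusted p = 0.936). The high-affinity receptor Ntsr1 had 0.01 (SE 0.25, adjusted p = 0.995), and Sort1 had -0.11 (SE 0.14, adjusted p = 0.874). Mme, which encodes neprilysin itself, gave 0.29 (SE 0.22, adjusted p = 0.770). The difference between target and its neighbours was thus called for the peptide precursor and 1 peptidase, and for none of the 3 receptors.

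**Figure D2:**
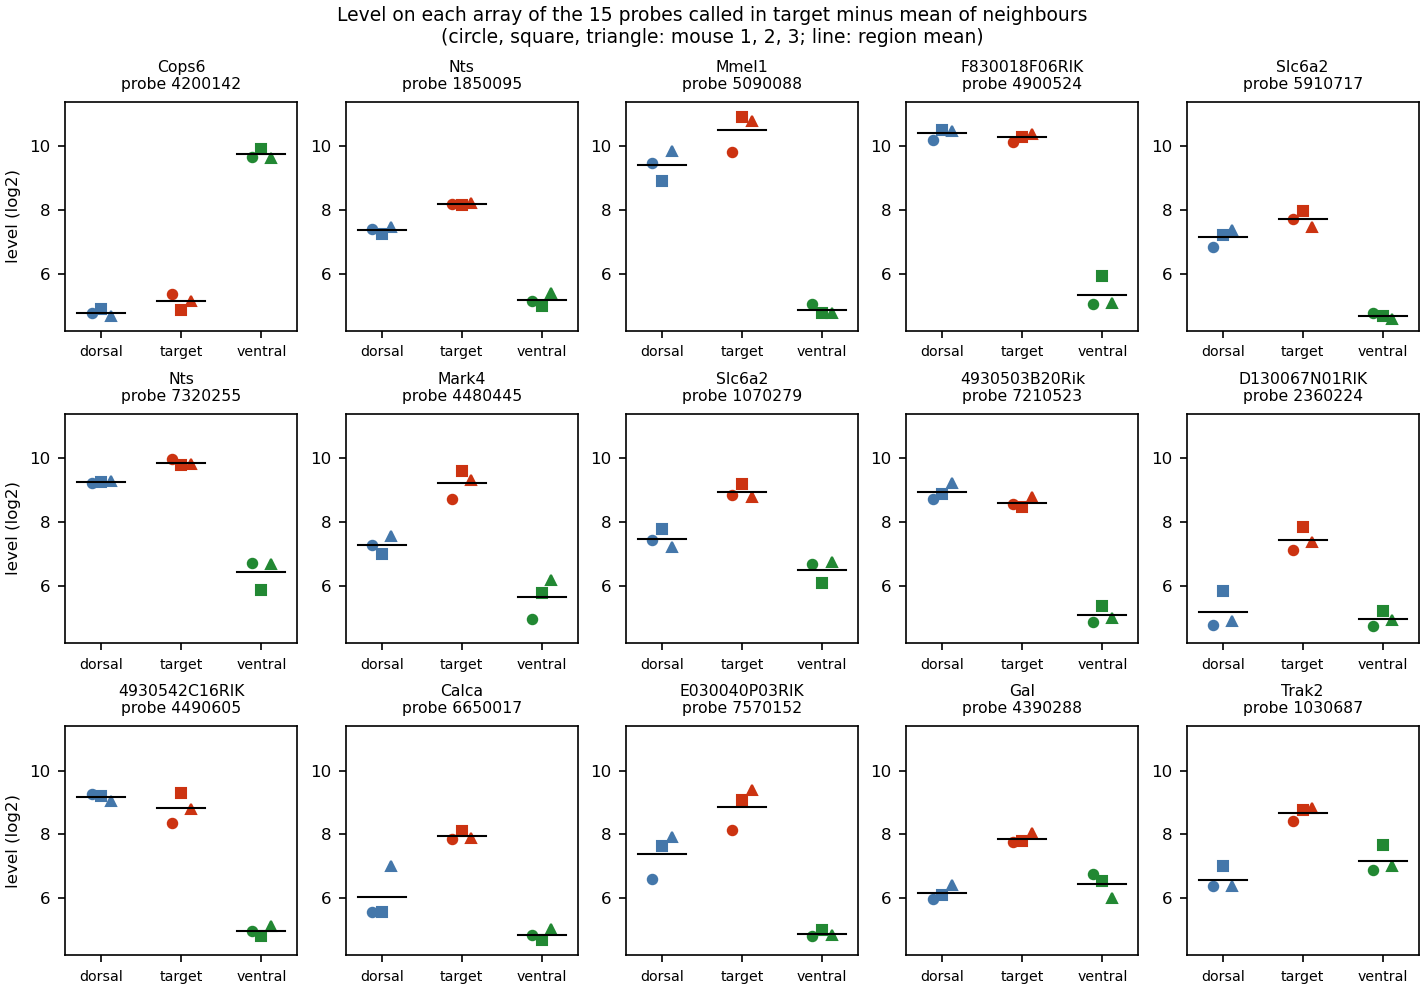
Level (log2) of each of the 15 called probes on each array, by region (x axis), with 1 symbol per mouse and a line at the region mean. Ventral arrays sit near 5, the background, for 8 probes, and the 3 target arrays lie above the 6 others for 10; Cops6 alone is high in ventral.

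Slc6a2, the noradrenaline transporter, was higher in target than in the mean of its neighbours on both tested probes. Probe 1070279 read 8.85, 9.20 and 8.78 in target, 7.42, 7.80 and 7.20 in dorsal, and 6.69, 6.08 and 6.73 in ventral. No array of one region overlapped with those of another. The difference was 1.96 (SE 0.21, 3.89-fold, adjusted p = 0.0148). It did not pass with the mouse as a block (adjusted p = 0.0855), and over all alternatives the adjusted p ran from 9.21e-04 to 0.109.

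Probe 5910717 of the same gene read 7.71, 7.95 and 7.47 in target, 6.84, 7.21 and 7.37 in dorsal, and 4.74, 4.68 and 4.58 in ventral. The target arrays lay above the dorsal arrays by a narrow margin, and ventral was at background throughout. Target exceeded the mean of the neighbours by at least 2.37-fold (fitted difference 1.81, SE 0.18, adjusted p = 0.00906, with the block 0.0434). Against dorsal the differences were 1.47 (SE 0.25, adjusted p = 0.0772) on the first probe and 0.57 (SE 0.20, adjusted p = 0.422) on the second. The remaining Slc6a2 probe was above background on 1 array and was not tested.

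Gal, the galanin precursor, read 7.74, 7.79 and 8.04 in target, 5.95, 6.10 and 6.42 in dorsal, and 6.74, 6.54 and 5.99 in ventral. The target arrays stood above all 6 neighbour arrays, while dorsal and ventral overlapped. The difference was 1.57 (SE 0.20, 2.97-fold, adjusted p = 0.0364). Against each neighbour alone it was 1.71 for dorsal (SE 0.23, adjusted p = 0.0506) and 1.44 for ventral (SE 0.23, adjusted p = 0.0234). With the block the adjusted p was 0.175, and it lay above 0.05 whenever any 1 of the 9 arrays was left out (0.0526 to 0.309).

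Of the 11 listed genes of noradrenergic neurons, 8 were tested and 2 were called, Slc6a2 and Gal, beside 0.0838% of all tested genes. This list too was chosen with earlier results known. The list median was 0.33, with 5 members above 0 and 3 below. The summed normalised intensity of the 8 genes ran from 1823 to 2002 in target, 1171 to 1271 in dorsal and 1153 to 1335 in ventral, with no overlap between target and the others. That gap rests on Slc6a2 and Gal: without them the 6 other genes summed to 1044 to 1329 in target, 936 to 1070.2 in dorsal and 1015 to 1173 in ventral, which overlap. Th and Dbh, the enzymes that define noradrenaline synthesis, were at background on all 9 arrays. Each was read by a single probe, so absence of the transcripts is not shown. Among the members that did not pass, the decarboxylase Ddc had a difference of 0.48 (SE 0.26, adjusted p = 0.677). The vesicular monoamine transporter Slc18a2 had -0.05 (SE 0.42, adjusted p = 0.985).

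**Figure D3:**
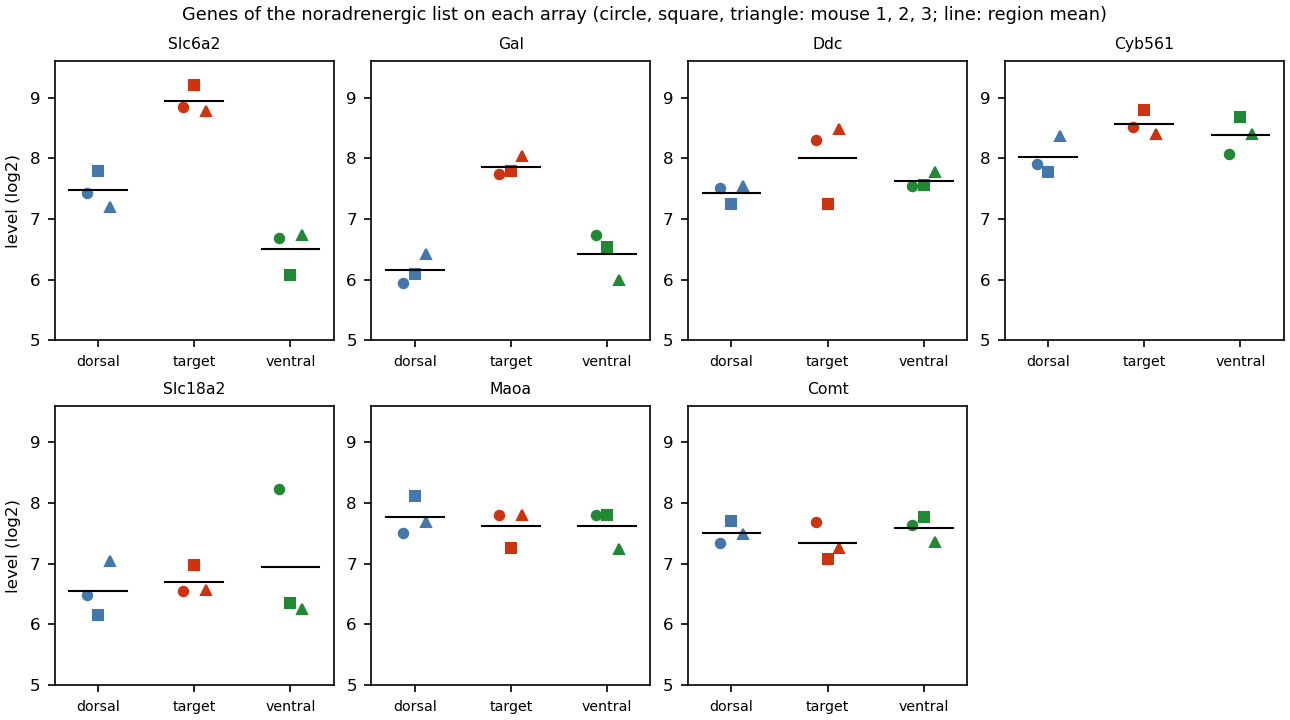
Level (log2) of 7 of the 8 tested noradrenergic genes on each array, by region (x axis), with 1 symbol per mouse and a line at the region mean, ordered by the difference. Target arrays stand apart for Slc6a2 and Gal, and overlap with a neighbour for the 5 other genes shown.

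Calca, which encodes calcitonin and CGRP, read 7.84, 8.09 and 7.89 in target, 5.55, 5.57 and 7.00 in dorsal, and 4.83, 4.67 and 5.02 in ventral. All 3 target arrays were above the 6 others, dorsal was above background on array 3 only, and ventral was at background throughout. The fitted difference from the mean of the neighbours was 2.50 (SE 0.31, adjusted p = 0.0265), or 4.05-fold with ventral set at the background limit. That fold is no lower limit, since dorsal arrays 1 and 2 kept their levels at background. Target exceeded ventral by at least 4.40-fold. The difference from dorsal was 1.90 (SE 0.36, adjusted p = 0.102). With the block the adjusted p against the mean was 0.0694, and over all alternatives it ran from 0.00215 to 0.216. The 3 other Calca probes of the array were at background on all 9 arrays and gave no second reading. Without dorsal array 3, Calca was the only probe to pass the test for a level beyond both neighbours (adjusted p = 0.0374).

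Of the 12 listed genes of cranial motor neurons, 6 were tested and Calca alone was called, beside 0.0838% of all tested genes. The others had differences from -0.14 (Gap43) to 0.87 (Chodl, SE 0.27, adjusted p = 0.528), and the list median was 0.28. The cholinergic genes that such neurons share could not be tested. Chat was above background on 1, 2 and 0 arrays with its 3 probes, and Slc5a7, the choline transporter, and Slc18a3, the vesicular acetylcholine transporter, on none. The Chat probe with 2 arrays fell just short of the 3 arrays required.

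Over the neuropeptide precursors and granins, 16 of 35 listed genes were tested and 3 were called, Nts, Calca and Gal, all higher in target, beside 0.0769% of all tested genes called higher. The median of the list was 0.00, with 9 members above 0 and 7 below. Npy, which encodes neuropeptide Y, had the smallest p among the rest, with a difference of -0.46 (SE 0.17, adjusted p = 0.569), and the target arrays were at background. The enkephalin precursor Penk gave 0.00 (SE 0.34, adjusted p = 0.999). Sst, the somatostatin precursor, gave 0.16 (SE 0.19, adjusted p = 0.853). Tac1, the substance P precursor, gave -0.16 (SE 0.38, adjusted p = 0.936), and Crh, the corticotropin-releasing hormone precursor, -0.01 (SE 0.35, adjusted p = 0.996).

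A kinase and a transport adaptor were also higher. Mark4, a kinase that phosphorylates microtubule-associated proteins, read 8.72, 9.61 and 9.33 in target, 7.27, 6.98 and 7.57 in dorsal, and 4.96, 5.76 and 6.17 in ventral, where 1 array was above background. The 3 regions did not overlap. The difference was 2.77 (SE 0.30, 6.82-fold, adjusted p = 0.0148, with the block 0.0243), and that from dorsal was 1.95 (SE 0.34, adjusted p = 0.0843). Background on the other ventral arrays limits this fold. The adjusted p of Mark4 against the mean rose to 0.109 without target array 2 and 0.150 without target array 3.

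Trak2, an adaptor that links mitochondria to motor proteins, read 8.41, 8.77 and 8.83 on its called probe in target, 6.37, 7.00 and 6.36 in dorsal, and 6.87, 7.65 and 6.99 in ventral. Target was above all 6 neighbour arrays, and dorsal and ventral overlapped. The difference was 1.80 (SE 0.24, 3.48-fold, adjusted p = 0.0375), and the adjusted p ran from 0.00482 to 0.309 over all alternatives. Trak2 passed against each neighbour taken separately, by 2.10 over dorsal (SE 0.27, adjusted p = 0.0435) and 1.50 over ventral (SE 0.27, adjusted p = 0.0329). The other 2 Trak2 probes did not follow it, with differences of 0.32 on each (SE 0.26, adjusted p = 0.780, and SE 0.24, adjusted p = 0.768).

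The 5 clone-named loci have no descriptive name here (4930503B20Rik matched a RefSeq symbol on chromosome 3, the others none), and 4 of them were at background on all ventral arrays. D130067N01RIK read 7.11, 7.83 and 7.39 in target, 4.76, 5.85 and 4.91 in dorsal, and 4.74, 5.21 and 4.91 in ventral. The neighbours overlapped with each other and lay below every target array. Dorsal was above background on array 2 only. The fitted difference was 2.38 (SE 0.27, adjusted p = 0.0181, with the block 0.0243), or 3.88-fold with ventral set at the background limit. That fold is no lower limit, since dorsal arrays 1 and 3 kept their levels at background. Against dorsal the difference was 2.27 (SE 0.31, adjusted p = 0.0506), which the same 2 arrays limit. E030040P03RIK was also highest in target, by at least 4.84-fold over the mean (fitted 2.74, SE 0.34, adjusted p = 0.0265). Its difference from dorsal was 1.49 (SE 0.39, adjusted p = 0.262). Over all alternatives its adjusted p against the mean ran from 0.0102 to 0.216.

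For the remaining 3 clone-named loci, target lay between its neighbours and below dorsal. F830018F06RIK read 10.15, 10.29 and 10.40 in target, 10.21, 10.52 and 10.49 in dorsal, and 5.03, 5.92 and 5.06 in ventral. Target and dorsal overlapped and ventral stood apart, so its difference of 2.41 (SE 0.22, adjusted p = 0.00647) from the mean went with one of -0.13 (SE 0.25, adjusted p = 0.902) from dorsal. The same held for 4930503B20Rik, at least 2.35-fold above the mean (adjusted p = 0.0179) and -0.34 from dorsal (SE 0.21, adjusted p = 0.647), and a second tested probe of that locus gave -0.58 (SE 0.22, adjusted p = 0.574). 4930542C16RIK was at least 2.50-fold above the mean (adjusted p = 0.0265) and differed by -0.37 from dorsal (SE 0.24, adjusted p = 0.673). With the block the adjusted p against the mean was 0.0694 for 4930503B20Rik and 0.122 for 4930542C16RIK.

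Cops6, a subunit of the COP9 signalosome, a complex that removes the ubiquitin-like protein NEDD8 from cullins, had the only probe called below the mean of the neighbours. It read 5.37, 4.87 and 5.15 in target, 4.77, 4.88 and 4.65 in dorsal, and 9.67, 9.91 and 9.64 in ventral. Target and dorsal were at background on all 6 arrays, and ventral lay at least 16.2-fold above target. The probe met the requirement of 3 arrays through ventral alone, so the call shows a high ventral level and no target level that differs from dorsal, and no fold can be given between target and dorsal. The 7 other tested subunits, of 9 listed, were not called. Their differences ran from -0.11 (Cops4) to 0.66 (Cops7b, SE 0.24, adjusted p = 0.562), and the list median was -0.07.

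Of the 42 gene lists, 5 held a called member, and 37 held none. The list medians ran from -0.18 (mural and meningeal cells) to 0.41 (blood cells), beside 0.01 over the 14313 tested genes, of which 7377 were above 0 and 6936 below. No marker of fast transmission was called. Slc17a6, the vesicular glutamate transporter of brainstem neurons, gave 0.12 (SE 0.13, adjusted p = 0.841), and Gad1, an enzyme of GABA synthesis, -0.08 (SE 0.14, adjusted p = 0.913). Slc32a1, the vesicular transporter of GABA and glycine, gave -0.21 (SE 0.16, adjusted p = 0.762), and Slc6a5, the glycine transporter of glycinergic neurons, -0.07 (SE 0.16, adjusted p = 0.935). Tph2, the serotonin-synthesizing enzyme, was above background on 4 of 9 arrays and gave 0.04 (SE 0.26, adjusted p = 0.982).

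The receptor lists held no called member. Of 36 listed neuropeptide and orexin receptor genes 14 were tested, with a median of -0.16 and the widest difference at the cholecystokinin receptor Cckar (-0.63, SE 0.41, adjusted p = 0.739). Hcrtr2, an orexin receptor at background on all ventral arrays, gave a fitted 0.33 (SE 0.37, adjusted p = 0.841). With ventral set at the background limit this was 0.04, and the difference from dorsal was -0.17 (SE 0.43, adjusted p = 0.927). Of 40 listed monoamine, acetylcholine and adenosine receptor genes 20 were tested. The widest difference there was that of the beta-adrenergic receptor Adrb1, which read 7.24, 7.86 and 7.19 in target, 5.21, 5.29 and 6.25 in dorsal, and 5.91, 6.69 and 7.12 in ventral. Its target arrays lay above the 6 others, and the difference of 1.35 (SE 0.33, adjusted p = 0.345) did not pass. Grin3a, a subunit of NMDA receptors, had 0.65 (SE 0.22, adjusted p = 0.532) among 12 tested ionotropic glutamate receptor genes.

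Several other lists held single genes with wide differences that did not pass. Slc13a4, a sulfate transporter of the meninges and choroid plexus, read 7.69, 8.61 and 7.87 in target, 6.98, 6.18 and 7.31 in dorsal, and 5.56, 5.63 and 6.14 in ventral (difference 1.76, SE 0.30, adjusted p = 0.131). Per2, a repressor of the circadian clock, read 7.71, 8.54 and 8.03 in target, 6.70, 6.75 and 7.32 in dorsal, and 6.57, 7.08 and 6.68 in ventral (1.24, SE 0.24, adjusted p = 0.177). In both genes the target arrays were above the 6 others. Egln3, an oxygen-sensing prolyl hydroxylase, had 1.52 (SE 0.39, adjusted p = 0.376), and Camk2a, a calcium-dependent kinase, 1.16 (SE 0.31, adjusted p = 0.408). The odorant receptor gene Olfr711, at background on all ventral arrays, had a fitted difference of 1.77 (bound 1.22, SE 0.28, adjusted p = 0.111), with target between dorsal and ventral. The widest difference below 0 among these lists was that of the T-type calcium channel gene Cacna1g (-1.04, SE 0.38, adjusted p = 0.564). Second probes gave smaller or opposite values, 0.06 and 0.23 for Cacna1g, -0.29 for Egln3 and 0.38 for Per2.

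**Figure D4:**
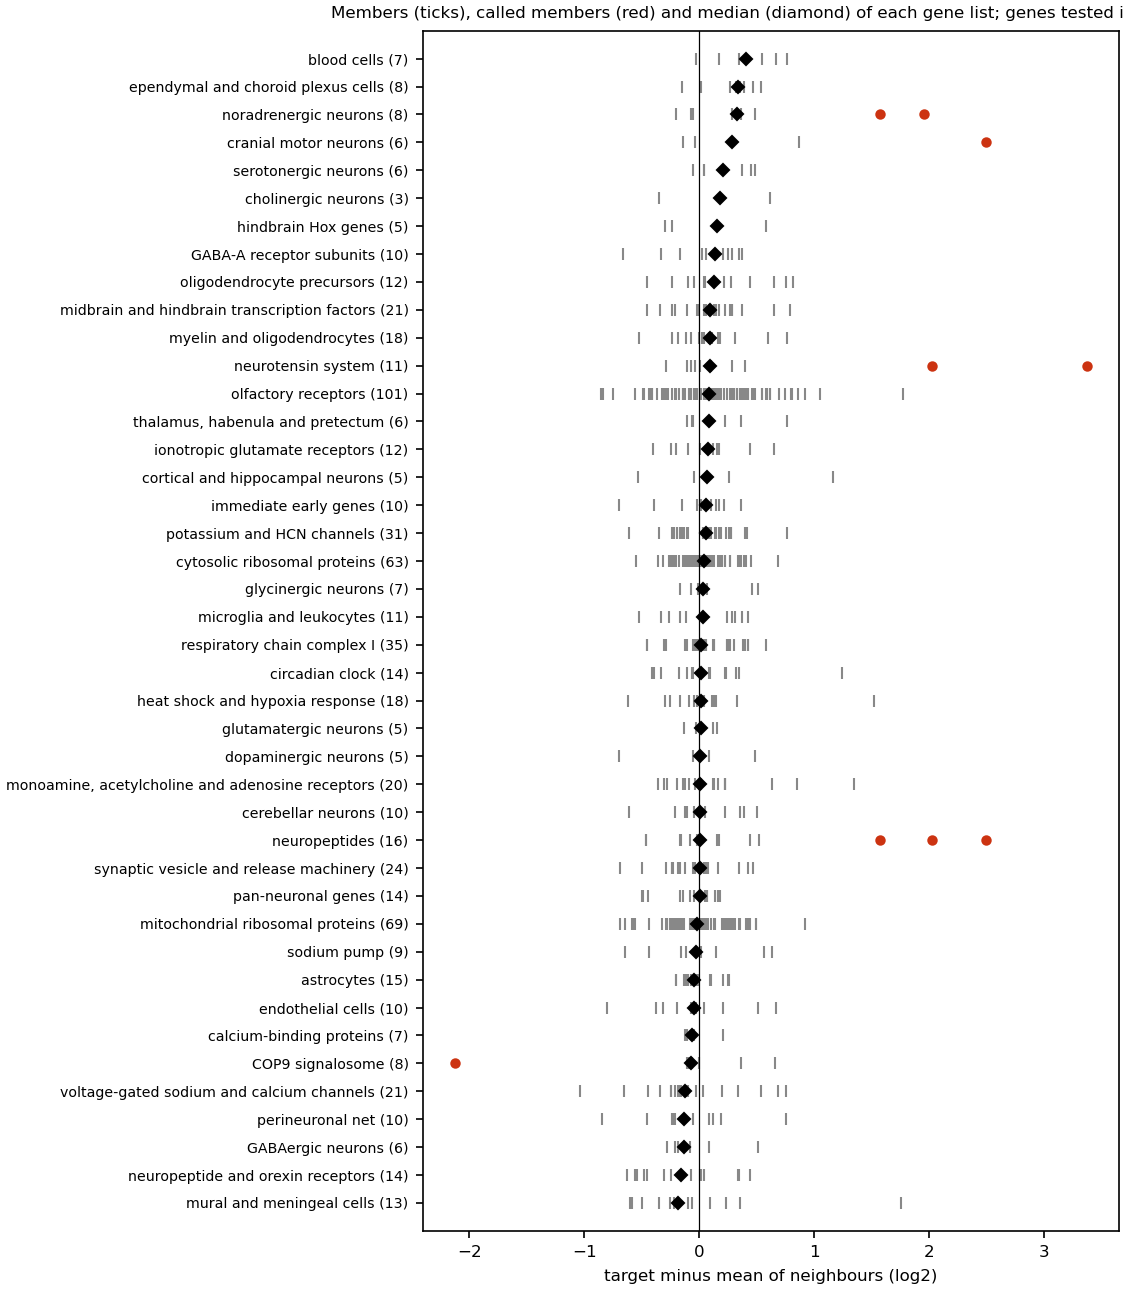
Difference between target and the mean of its neighbours (x axis, log2) for each tested member (tick), each called member (red point) and the median (diamond) of the 42 gene lists, with the number of genes tested in brackets. The medians lie between -0.18 and 0.41 and the called members stand outside the range of the other members of their lists.

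Markers of other cell types were set beside these results. The summed intensity of 7 tested blood cell genes, of 15 listed, was 3649 to 3938 in target, 3535 to 4081 in dorsal and 2135 to 2849 in ventral, and 6 of the 7 had a difference above 0. For 8 of 16 ependymal and choroid plexus genes the sums were 921 to 1253 in target, 768 to 949 in dorsal and 787 to 882 in ventral, with 7 of the 8 above 0. Ttr, the choroid plexus transthyretin gene, gave 0.47 (SE 0.41, adjusted p = 0.794). Myelin and oligodendrocyte genes summed to 48804 to 52342 in target, between dorsal (40765 to 43210) and ventral (53418 to 57972). Such a sum is weighted by the brightest genes, and the medians of the 18 members ran the other way. They were -0.07 for target minus dorsal and 0.12 for target minus ventral. Mbp, a myelin protein gene, had 0.17 on its brightest probe (SE 0.13, adjusted p = 0.773), and its other tested probes gave -0.05, -0.26, 0.23 and -0.22. The 14 tested pan-neuronal genes had a median of 0.00 and the 15 astrocyte genes one of -0.05. No member of these lists was called, and their part in the called differences was not tested. The Hox genes of the hindbrain could not check the brainstem label, since 12 of the 17 listed were too dim to test. The 5 tested stand beside 14313 tested of 28896 gene names on the array. Hoxb2, above background on 1 dorsal, 2 target and 2 ventral arrays, had 0.58 (SE 0.39, adjusted p = 0.743).

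Of the 15 calls, 10 remained with the mouse as a block, and no other probe was added. Calls were lost there for Calca, Gal, 1 Slc6a2 probe, 4930503B20Rik and 4930542C16RIK. With no background correction 33 probes were called, including all 15, and the 18 others comprised 17 higher and 1 lower in target. Leaving out target array 2 or target array 3 left 2 calls each, Cops6 and the dimmer Nts probe. The dimmer Nts probe was called in every alternative that tested it. So was Cops6, which speaks for its ventral level only.

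**Figure D5:**
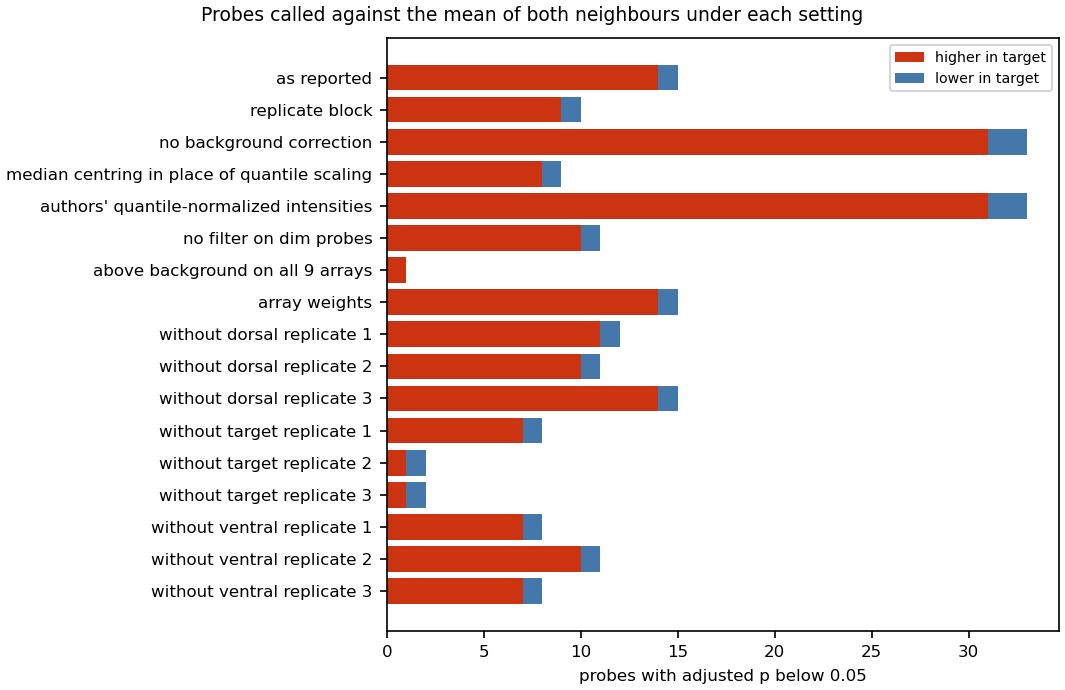
Number of probes called against the mean of both neighbours (x axis), split into higher (red) and lower (blue) in target, as reported and under each alternative setting. The count is 15 as reported and runs from 1 (probes above background on all 9 arrays) to 33 (no background correction, or the authors' quantile-normalised intensities).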

How the data were processed

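Total RNA of 9 tissue samples was hybridised to Illumina mouse BeadChips. GenomeStudio 1.6.0 gave linear bead intensities per array, per the file headers, and the authors deposited them once without normalization and once after quantile normalization. Per the file headers the same export gives a detection score for each probe and array, a fraction that nears 1 for bright probes, and the count of beads behind each intensity. The unnormalized intensities the authors deposited were used here. They went through neqc of limma 3.58.1 (R 4.3.3), which subtracts background by normexp, adds an offset (16), makes the arrays' quantiles equal and takes log2. Its negative controls were inferred from 1 minus the detection score. Probes with a detection score above 0.95 on at least 3 of 9 arrays were tested (lmFit, eBayes, 1 fit of 9 arrays with region as the only term, two-sided). No array columns lacked a sample.

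Equal numbers mark the same mouse, per the file headers. Deviations of same-mouse arrays from their region means correlated between -0.0963 and 0.146, and the mouse as a block was an alternative. Others were no background correction, median centring, the authors' quantile-normalized intensities, other detection filters, array weights, and each array left out. Where a region was at background on all 3 arrays, the bound used, on each array, the probe's level or the lowest level above background, whichever was higher. Single arrays at background in any other region kept their level. Of the tested probes, 13510 matched a symbol of the RefSeq table for GRCm38.p6, 3761 a synonym, and 3190 kept the array's name. For a gene with several probes, the brightest stands for it in the lists. No probe sequences were used. The fit was tested on simulated data.

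Named genes were those called (up to 12 in each direction), up to 3 called members of each gene list, the member with the widest difference in a list with none, and 32 fixed genes, of which 7 were not tested. Gap43, Chodl, Cops4, Cops7b, Slc18a2, Ttr, the genes of the last section and the clone-named loci were named outside this rule, after their values were seen. Some genes chosen by this rule are not named here. The comparison, the members and the 42 lists were chosen with earlier results of these data known.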

Additional observations from a re-analysis of the deposited data

How the results depend on the processing

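Of 15 probes called against the mean of both neighbours, 10 were called with the replicate block, 33 without background correction, 33 from the authors' quantile-normalized intensities, 9 with median centring, 11 without a detection filter, 1 (of 12192 tested) where all 9 arrays had to be above background, and 15 with array weights. Leaving out 1 array gave 2 to 15: 8, 2 and 2 without target array 1, 2 and 3, 8, 11 and 8 without the ventral arrays, and 12, 11 and 15 without the dorsal arrays. No called probe changed direction. In 228 refits of the called probes 146 kept the call and 82 lost it, and the cause was not tested. Without background correction the fitted differences were smaller, 0.92 in place of 1.92 for the dimmer Nts probe. The count beyond both neighbours was 0 to 1, the 1 being Calca without dorsal array 3. Median centring moved the median of all probes to -0.16. Signs then turned for genes near 0, all above that median: Gad2 (-0.10), Mbp (-0.027), Ntsr1 (-0.14), Penk (-0.0864), Slc17a6 (-0.076), Sst (-0.0789) and Tph2 (-0.0025). Crh turned to 0.0230 without background correction and 0.0229 with the authors' values, Ntsr1 to -0.00527 and -0.00545, and Tac1 to 0.0783 with array weights. Leaving out 1 array also turned the sign of uncalled genes, over these ranges: Crh -0.23 to 0.15, Gad1 -0.16 to 0.0174, Grin1 -0.11 to 0.44, Hcrtr2 -0.0517 to 0.67, Hpcal1 -0.0965 to 0.66, Ntsr1 -0.0974 to 0.17, Ntsr2 -0.20 to 0.0582, Penk -0.20 to 0.33, Slc6a5 -0.15 to 0.00586, Tac1 -0.56 to 0.16 and Tph2 -0.14 to 0.25. The headers give no chip, so a chip block was not run, and chip and region cannot be told apart here. Background limits folds for the 9 called probes with a region at background.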

Other observations

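Beyond the genes of the lists, the named probes next in order of p were read after their values were seen, and none passed. Sdk2, which encodes a synaptic adhesion molecule of the immunoglobulin superfamily, read 7.09, 7.86 and 7.82 in target, 5.33, 4.98 and 6.42 in dorsal, and 4.84, 5.24 and 5.19 in ventral. Its target arrays lay above the 6 others, of which dorsal array 3 alone was above background. The fitted difference was 2.26 (SE 0.32, limma adjusted p = 0.0650), or 3.73-fold with ventral set at the background limit. That fold is no lower limit, since dorsal arrays 1 and 2 kept their levels at background. Nsd1, a histone methyltransferase, had 1.12 (adjusted p = 0.0843) with ventral set apart. Zfp366, a zinc finger protein at background on all ventral arrays, had at least 1.89-fold (fitted 1.26, adjusted p = 0.0843). Its target and dorsal arrays overlapped, with a difference of 0.06 from dorsal (SE 0.22, adjusted p = 0.952).

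Apart from Cops6, whose target level was at background, no named gene passed on the lower side. Btf3, a transcription factor subunit that also binds nascent chains, read 5.81, 5.58 and 5.40 in target, 6.06, 6.05 and 6.51 in dorsal, and 7.08, 7.55 and 6.87 in ventral. The target arrays lay below the 6 others, and the fitted difference was -1.09 (adjusted p = 0.174). Only 1 target array was above background, which limits the size of this difference. Tcf12, a basic helix-loop-helix transcription factor, read 5.38, 5.79 and 4.94 in target, 6.63, 6.51 and 6.35 in dorsal, and 6.29, 6.75 and 6.20 in ventral. Its target arrays were likewise below both neighbours, with only 1 of them above background (fitted difference -1.09, adjusted p = 0.215). Peg13, an imprinted noncoding RNA, read 9.02, 9.73 and 8.87 in target, 11.01, 10.93 and 10.65 in dorsal, and 9.75, 9.51 and 9.57 in ventral, where target array 2 overlapped with ventral (-1.03, adjusted p = 0.243). Without background correction Peg13 was the second probe called lower (adjusted p = 0.049).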
